A study of Mus musculus with 20 samples.

Results

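Solute carriers are the membrane proteins that move nutrients, ions, metabolites and cofactors across cell and organelle membranes. The genes described here were chosen by symbol (Slc, a family number, the letter a, a member number) and by a mean input level of at least 1 TPM, that is RSEM's TPM unit, a read count scaled for transcript length and to a fixed library total. Of 337 matching symbols among the 23284 genes in the files, 179 passed this minimum and 158 did not. The 179 comprised 36 mitochondrial carriers of the Slc25 family and 143 others, 4 of which bear an Slc symbol without being transporters (Slc4a1ap, Slc7a6os, Slc9a3r1 and Slc9a3r2). Because input levels selected the members, input levels are given as a description. Just inside the minimum were Slc25a45 (1.01 TPM), Slc25a47 (1.02 TPM) and Slc38a9 (1.04 TPM), and just outside it were Slc30a4 (0.955 TPM), Slc25a43 (0.951 TPM) and Slc15a2 (0.919 TPM).

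The study asked which transcripts the dioxygenases Tet1 and Tet2 contact in mouse embryonic stem cells (ESCs), pluripotent cells taken from the early embryo and grown here in serum with LIF. Endogenous Tet1 or Tet2 was tagged by CRISPR knock-in with Flag, HA and Twin-Strep peptides, and in a further line the tagged Tet2 lacked its RNA-binding domain (Tet2ΔRBD, labelled Tet2dRBD). Each line is a picked clone, so line and clone cannot be told apart. RNA was recovered from cytoplasmic extract with anti-Flag antibody (IP) and compared with total input RNA, with 2 IP and input pairs for Tet1, 4 for Tet2 and 4 for Tet2ΔRBD. All 20 libraries are from tagged lines, and libraries of a control antibody were not analysed here. Whether the difference between cytoplasmic IP and total input contributes to the ratios below was not tested. The libraries held between 21078995 and 37576638 expected counts. The libraries of replicate 1 of both Tet2 lines and the Tet2ΔRBD pair of replicate 2 stood apart from the rest for the solute carriers, as described below, and counts of calls without them are given below. Replicates 3 and 4 of both Tet2 lines were close to each other: their counts differed by a chi-square of 2.69 to 16.1 per gene, beyond sampling noise, compared with 132 to 527 for the other replicate pairs of these lines. The 2 Tet1 replicates were also close, at 7.5 per gene in IP and 7.62 in input, and were kept separate. Replicates 3 and 4 of the Tet2 lines were kept as separate pairs, and counts with them summed into 1 replicate are given too. The ESC marker Pou5f1 lay between 2000.0 and 3190.0 TPM in the inputs. The mesoderm genes T and Mesp1 stayed at or below 0.25 and 0.54 TPM. Of the neural genes, Pax6 stayed at or below 0.97 TPM and Sox1 reached 19.7 TPM. The primitive endoderm genes Gata4, Gata6 and Sox17 reached 43.7, 26.1 and 19.0 TPM. The fibroblast genes Thy1, Col1a1 and Col1a2 reached 35.8, 17.8 and 9.24 TPM.

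Carriers of the Slc25 family are made on cytosolic ribosomes and imported into the inner mitochondrial membrane, where they exchange ATP, phosphate, amino acids, iron and cofactors with the cytosol (Slc25a17, in the peroxisome, is a known exception). Most other solute carriers are inserted into the endoplasmic reticulum (ER) during translation and travel to the plasma membrane, Golgi, lysosome or vesicles. The family as a whole therefore holds mRNAs translated at different places in the cell. ESCs are known for high glucose and amino acid uptake, served by transporters such as Slc2a1, Slc2a3, Slc7a5 and Slc1a5.

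A small set of transporter transcripts was enriched in Tet2 IP and had smaller fitted ratios in Tet2ΔRBD and Tet1 IP, none of them called. Of these, 4 are described first. Slc44a4 is a choline transporter-like protein that carries thiamine pyrophosphate, and Slc25a38 is the mitochondrial glycine carrier required for heme synthesis. Slc20a1 is a sodium-dependent phosphate transporter, and Slc30a2 is a zinc transporter of vesicles. Slc27a2 (0.92) and Slc37a4 (0.73), given further below, fit the same description with larger Tet2 ratios than Slc30a2 (0.51). The group of 4 was singled out after their values were seen. The first 3 are also the highest fitted ratios among the solute carriers called in Tet2. In the fit, a ratio is log2(IP/input) from edgeR's quasi-likelihood model of the counts, with each IP blocked with its own input, an SE, and a p-value adjusted by Benjamini-Hochberg over 13710 genes with a threshold of 0.05.

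Slc44a4 spans chr17:35051411-35067381 on the plus strand (mm9). In Tet2 its input held 5.58, 10.6, 9.89 and 9.94 TPM and its IP 29.3, 29.5, 28.5 and 29.1 TPM in replicates 1 to 4. In Tet2ΔRBD the inputs held 3.77, 6.73, 7.17 and 5.77 TPM and the IPs 3.06, 7.0, 8.9 and 8.84 TPM. All 4 Tet2 IPs therefore lay above every input and every other IP library, including Tet1 at 14.9 and 14.3 TPM against inputs of 10.4 and 11.8 TPM. The fitted log2 ratio was 1.42 ± 0.19 (SE) in Tet2, with an edgeR adjusted p of 0.000498. It was -0.09 ± 0.19 in Tet2ΔRBD and 0.26 ± 0.26 in Tet1. The input of Slc44a4 was also lower in Tet2ΔRBD than in Tet2 by 0.62 ± 0.30 on the log2 scale, which did not pass the threshold (edgeR adjusted p = 1.0).

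Slc25a38 lies at chr9:120019492-120033622 on the plus strand. Its Tet2 inputs held 14.5, 28.7, 26.04 and 27.5 TPM, and the IPs 69.1, 64.2, 62.8 and 70.0 TPM. The Tet2ΔRBD inputs held 14.7, 32.0, 27.4 and 26.6 TPM and the IPs 16.5, 29.4, 35.7 and 34.0 TPM. Input levels thus overlapped between the lines, while the Tet2 IPs stood above all other libraries, Tet1 IP included (27.3 and 29.7 TPM against inputs of 23.5 and 24.1 TPM). The fitted log2 ratio was 1.19 ± 0.16 in Tet2 (edgeR adjusted p = 0.000587), -0.08 ± 0.16 in Tet2ΔRBD and 0.11 ± 0.23 in Tet1. It was 1 of the 2 Slc25 carriers called higher in Tet2 IP. The other was Slc25a42, the mitochondrial coenzyme A carrier, at 0.48 ± 0.16.

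Slc20a1 lies at chr2:129024500-129037352 on the plus strand, and its exons overlap those of 9830144P21Rik on the other strand. The strand setting of the libraries is not given in the sources used here, so reads of both genes may be mixed. Its Tet2 inputs held 30.4, 103, 127 and 137 TPM and the IPs 128, 389, 203 and 206 TPM. The ratio was therefore uneven, with log2 values of 2.03 and 1.91 in replicates 1 and 2 and of 0.68 and 0.58 in replicates 3 and 4. In Tet2ΔRBD the 4 ratios lay between 0.15 and 0.54, so every pair was above input. Those of replicates 3 and 4, at 0.52 and 0.54, were close to the Tet2 ratios of the same numbers. In Tet1 the IPs held 176 and 161 TPM against inputs of 132 and 125 TPM. The fitted log2 ratio was 1.00 ± 0.20 in Tet2 (edgeR adjusted p = 0.00421), 0.16 ± 0.20 in Tet2ΔRBD and 0.25 ± 0.28 in Tet1.

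Slc30a2, at chr4:133899096-133910399 on the plus strand, had Tet2 inputs of 5.58, 17.3, 14.4 and 14.01 TPM and IPs of 11.8, 29.7, 23.3 and 23.7 TPM. The 4 Tet2 pairs agreed closely, with log2 TPM ratios between 0.66 and 0.96, and all exceeded the Tet2ΔRBD pairs, whose ratios lay between -0.18 and 0.46. The fitted log2 ratio was 0.51 ± 0.11 in Tet2 (edgeR adjusted p = 0.00659), 0.02 ± 0.11 in Tet2ΔRBD and -0.16 ± 0.16 in Tet1.

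**Figure D1:**
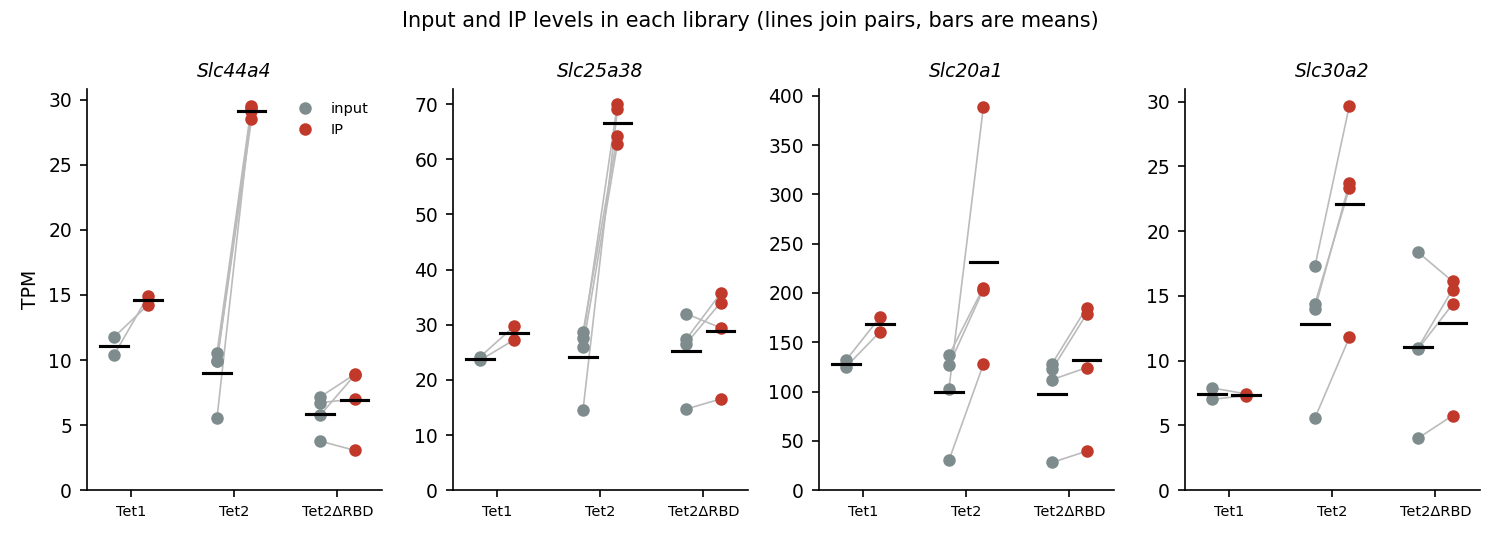
TPM of 4 transporters (vertical axes, linear from 0) in each input (grey) and IP (red) library of the 3 lines; thin lines join the IP and input of 1 replicate and black bars are group means. For Slc44a4 and Slc25a38 the 4 Tet2 IP libraries lie above every other library, whereas for Slc20a1 and Slc30a2 IP and input of Tet2 overlap across replicates but rise within each pair.

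The difference between Tet2 and Tet2ΔRBD was tested directly, as the difference of their IP effects. No solute carrier passed the edgeR threshold, against 0.0219% of all genes tested, and 6 of 179 had an unadjusted p under 0.05, against 3.03% of all genes. Slc44a4 differed by 1.51 ± 0.26 on the log2 scale (edgeR adjusted p = 0.185) and Slc25a38 by 1.26 ± 0.23 (adjusted p = 0.185). For Slc20a1 the difference was 0.84 ± 0.28 and for Slc30a2 0.48 ± 0.16, both with an edgeR adjusted p of 1.0. With DESeq2 2 solute carriers passed, Slc25a38 and Slc44a4, against 0.204% of all genes. All 4 Tet2 pairs exceeded all 4 Tet2ΔRBD pairs in TPM ratio for 5 solute carriers (2.79%; the 4 above and Slc4a11, a member of the bicarbonate transporter family), against 1.37% of the 11784 expressed genes, those whose input TPM averaged at least 1. The opposite order was found for 1 solute carrier (0.559%), against 1.15% of those genes. Between Tet1 and Tet2, a comparison that uses the same Tet2 libraries, no solute carrier passed with edgeR, against 0.0% of all genes, and 10 had an unadjusted p under 0.05, against 3.77%. DESeq2 called 0, against 0.0948%. The Tet1 minus Tet2 differences were -1.16 ± 0.32 for Slc44a4 and -1.08 ± 0.28 for Slc25a38, both with an edgeR adjusted p of 0.94. Tet1 had 2 pairs only.

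Between the Tet2 and Tet2ΔRBD inputs, no solute carrier passed the edgeR threshold, against 0.0% of 13178 genes. The members were selected on the mean over the inputs of all lines, and that no gene passed does not show that the inputs were alike. At an unadjusted p under 0.05 (1.88% of all genes) stood Slc11a1, a metal transporter of phagocytes, at -1.19 ± 0.40 (log2, Tet2ΔRBD minus Tet2) and Slc40a1, the iron exporter ferroportin, at 0.97 ± 0.34, both with an edgeR adjusted p of 1.0. DESeq2 called none, against 0.0683%. With the replicate number as a block, edgeR again called 0, against 0.0379%, and 35 solute carriers then had an unadjusted p under 0.05, against 12.5% of all genes.

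The study linked hydroxymethylated RNA to sequences rich in U and C. The longest uninterrupted run of C and T in the coding sequence is therefore shown for the 4 transporters above. It is also shown for Slc16a1 and Slc35a5, which were low in IP (below). The study found its motif around hydroxymethylated sites, most of them intronic. Introns were not searched here, so these runs are not a search for that motif. Capitals mark the run, and 15 bases on each side are in lower case, read from the mm9 genome and the gencode vM1 transcripts.

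Slc44a4: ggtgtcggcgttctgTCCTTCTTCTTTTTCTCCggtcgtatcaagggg
Slc25a38: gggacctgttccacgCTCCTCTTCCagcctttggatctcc
Slc20a1: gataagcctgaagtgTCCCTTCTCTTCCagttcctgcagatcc
Slc30a2: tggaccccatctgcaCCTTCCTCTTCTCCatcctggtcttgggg
Slc16a1: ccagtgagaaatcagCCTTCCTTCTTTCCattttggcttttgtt
Slc35a5: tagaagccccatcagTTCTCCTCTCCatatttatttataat

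The Slc44a4 stretch spans an exon junction within chr17:35065644-35065793 and holds a run of 18 bases, a length reached in 2.47% of the coding sequences of 11239 expressed genes. The runs of Slc30a2 (chr4:133905216-133905259) and Slc16a1 (chr3:104457163-104457206) were both 14 bases long, and 13.8% of genes had a run at least that long. The first gene was high and the second low in Tet2 IP. Slc20a1 (chr2:129034187-129034229) had 13 bases (reached in 20.9% of genes) and Slc35a5 (chr16:45143821-45143861, minus strand) 11 bases (reached in 44.6%). The run of Slc25a38 (chr9:120025662-120025701), at 10 bases, was of a length reached in 60.9% of genes. Longer coding sequences have more room for such a run. Over the 179 solute carriers, run length and the fitted Tet2 ratio had a Spearman correlation of 0.07, compared with 0.23 over the 11239 genes. These correlations are across genes, which share the libraries and are not independent replicates, and they are given as a description.

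In Tet2 IP 15 solute carriers were called higher (8.38%, against 14.6%) and 34 lower (against 18.5% of all genes tested). Besides the 4 above, those called higher included both fatty acid transporters with the largest ratios of their family. Slc27a2 rose by 0.92 ± 0.17 on the log2 scale (edgeR adjusted p = 0.00261), from Tet2 inputs of 1.18, 3.32, 4.37 and 5.13 TPM to IPs of 3.72, 9.03, 9.08 and 9.32 TPM. Its ratio was 0.47 ± 0.17 in Tet2ΔRBD (adjusted p = 0.0713) and 0.80 ± 0.23 in Tet1 (adjusted p = 0.065), neither past the threshold. Slc37a4, the glucose-6-phosphate transporter of the ER, rose by 0.73 ± 0.15 (edgeR adjusted p = 0.0052). Its Tet2 IPs, at 18.99, 16.9, 18.9 and 17.8 TPM, did not overlap its inputs, at 7.29, 9.55, 8.75 and 9.68 TPM. The remaining ratios called higher lay between 0.39 and 0.67 and belonged to Slc12a4, Slc25a42, Slc26a2, Slc27a4, Slc30a5, Slc37a1, Slc38a10, Slc39a4 and Slc4a11. Without Tet2 replicate 1, 10 solute carriers were called higher and 16 lower (all genes 8.99% and 10.8%). With replicates 3 and 4 summed the counts were 9 and 24 (all genes 9.29% and 14.2%).

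Tet2ΔRBD IP gave 4 solute carriers called higher (2.23%, against 7.4% of all genes) and 22 called lower (12.3%, against 12.1%). Of the 4, Slc27a4, Slc30a5 and Slc38a10 were also called higher in Tet2 (1.68% of members, against 6.37% of all genes called higher in both lines), and Slc39a3, a zinc importer, was at 0.43 ± 0.11 in Tet2ΔRBD and 0.30 ± 0.11 in Tet2 (edgeR adjusted p = 0.0193 and 0.0505). Slc30a5, at chr13:101572604-101603382 on the minus strand, encodes a zinc transporter of the early secretory pathway. Its Tet2 inputs held 6.98, 13.4, 36.2 and 39.05 TPM and its IPs 16.4, 32.8, 62.0 and 61.3 TPM. In Tet2ΔRBD the inputs held 8.06, 7.94, 34.3 and 39.8 TPM and the IPs 18.1, 22.4, 62.4 and 58.3 TPM. Every pair rose in both lines, and the fitted log2 ratios were 0.67 ± 0.16 and 0.74 ± 0.16 (edgeR adjusted p = 0.00897 and 0.0113). Slc27a4, an acyl-CoA synthetase that supports fatty acid uptake, rose by 0.61 ± 0.12 in Tet2 and by 0.59 ± 0.13 in Tet2ΔRBD. Slc38a10, of the neutral amino acid transporter family Slc38, rose by 0.43 ± 0.10 and by 0.45 ± 0.10. No solute carrier was called in opposite directions in any pair of lines. The Tet2ΔRBD counts moved to 2 higher and 18 lower without its replicate 1 (all genes 2.68% and 6.38%), to 12 and 15 without its replicate 2 (8.31% and 11.8%), and to 1 and 5 without its replicate 3 (1.51% and 4.3%). Without its replicate 4 they were 5 and 15 (all genes 1226 and 1227 of 13682). With replicates 3 and 4 summed, in both Tet2 lines at once, they fell to 1 and 2 (3.12% and 4.67%). Why these settings differ was not tested.

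Tet1 IP gave no solute carrier called higher by edgeR, against 2.72% of all genes, and 8 called lower (4.47%, against 3.18%). At an unadjusted p under 0.05 stood 43 in either direction, against 23.5% of all genes. DESeq2 called 2 higher and 14 lower (all genes 6.13% and 5.38%). The 8 called lower were Slc16a1, Slc2a3, Slc29a3, Slc30a7, Slc35a5, Slc39a14, Slc41a1 and Slc25a44. The lowest ratio among the 8 was that of Slc29a3, a nucleoside transporter of lysosomes, at -0.87 ± 0.18 (edgeR adjusted p = 0.0274), with IPs of 3.82 and 3.39 TPM against inputs of 6.3 and 5.6 TPM. These Tet1 calls rest on 2 pairs. Without either of them, or without the pair block, edgeR called none. Because the fit shares its spread over lines, the Tet1 count also moved with pairs of the other lines, to 2 higher and 19 lower without Tet2ΔRBD replicate 2 (all genes 5.34% and 5.68%) and to 16 lower without Tet2 replicate 2 (5.46%). It fell to 1 lower without Tet2 replicate 3 (1.29%) or Tet2ΔRBD replicate 3 (1.58%), to 2 without Tet2 replicate 4 (1.69%) and to 1 with replicates 3 and 4 summed (0.955%).

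The transporters called lower in IP in all 3 lines numbered 5, namely Slc16a1, Slc2a3, Slc30a7, Slc35a5 and Slc39a14 (2.79%, near the 2.99% of all genes). Slc16a1 encodes the lactate and pyruvate transporter MCT1 and lies at chr3:104442591-104462385 on the plus strand. Its Tet1 inputs held 107 and 99.4 TPM and the IPs 70.6 and 59.7 TPM. In Tet2 the inputs held 20.3, 74.98, 85.8 and 78.8 TPM and the IPs 13.1, 53.8, 53.0 and 52.7 TPM, and in Tet2ΔRBD 18.8, 74.9, 89.1 and 88.0 TPM against 16.5, 38.2, 66.0 and 60.3 TPM. All 10 IP libraries thus held less than their own input. The fitted log2 ratios were -0.81 ± 0.14 in Tet1, -0.92 ± 0.10 in Tet2 and -0.81 ± 0.10 in Tet2ΔRBD, with edgeR adjusted p-values of 0.0204, 0.000233 and 0.000884.

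Slc35a5, a Golgi protein of the nucleotide sugar transporter family, had fitted ratios of -0.80 ± 0.19, -0.94 ± 0.13 and -0.66 ± 0.13 in the same order of lines. It was a low transcript, at 1.61 to 5.49 TPM in the inputs, and 9 of its 10 IPs lay below their input. Slc2a3, the high-affinity glucose transporter GLUT3, was among the most abundant members, with inputs between 347 and 1173 TPM. Its fitted ratios were -0.71 ± 0.17, -0.55 ± 0.12 and -0.48 ± 0.12. On the TPM scale its pairs were less uniform: both Tet1 IPs lay below input by 0.52 and 0.60 on the log2 scale, while Tet2 replicate 2 (0.01) and Tet2ΔRBD replicate 1 (0.18) did not. The zinc transporters Slc39a14, of the plasma membrane, and Slc30a7, of the Golgi, had ratios between -0.69 and -0.31. A total of 18 solute carriers were called lower in both Tet2 and Tet2ΔRBD (10.1%, near the 10.6% of all genes), including the Slc25 carriers Slc25a13, Slc25a15, Slc25a17, Slc25a24, Slc25a37 and Slc25a40.

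**Figure D2:**
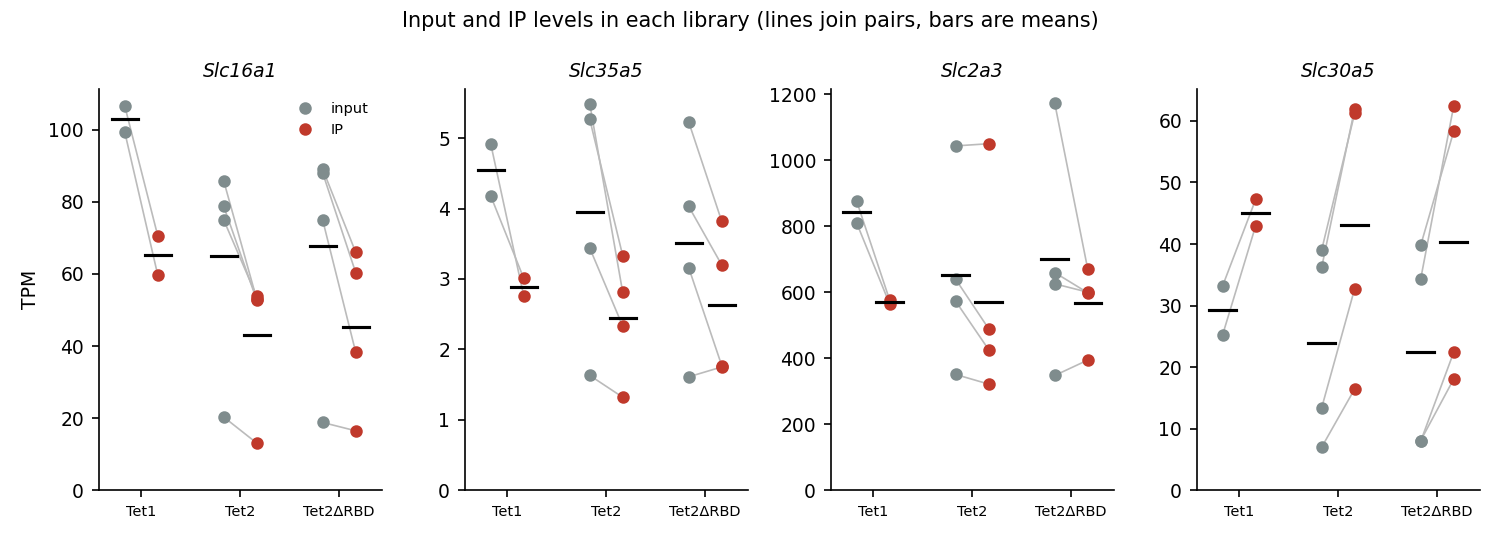
TPM of Slc16a1, Slc35a5, Slc2a3 and Slc30a5 (vertical axes, linear from 0) in each input (grey) and IP (red) library of the 3 lines; thin lines join the IP and input of 1 replicate and black bars are group means. Slc16a1 falls in all 10 pairs and Slc30a5 rises in all 10, while the replicates of 1 line differ widely in level.

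The lowest ratio called in Tet2 was that of Slc7a14, a lysosomal protein of the cationic amino acid transporter family, at -1.78 ± 0.43 (edgeR adjusted p = 0.00962). Its Tet2 IPs held 1.86, 1.44, 1.57 and 1.53 TPM against inputs of 2.4, 4.71, 5.67 and 5.71 TPM. In Tet2ΔRBD 3 IPs were as low, at 1.35, 1.77 and 1.79 TPM, but replicate 2 held 8.39 TPM, above its input of 4.47 TPM, and the ratio of -1.07 ± 0.44 did not pass (edgeR adjusted p = 0.11). Among the Slc25 carriers the lowest ratios called in Tet2 were those of Slc25a45 (-1.15 ± 0.24), whose transport role is little described, and Slc25a35 (-0.99 ± 0.25), both below 5 TPM. In Tet2ΔRBD the lowest ratios among those called included, after Slc16a1, Slc25a40 (-0.73 ± 0.17), linked to mitochondrial glutathione, Slc35a3 (-0.70 ± 0.15), the UDP-N-acetylglucosamine transporter of the Golgi, and Slc25a37 (-0.63 ± 0.14), the iron carrier mitoferrin 1. Slc35a3 shares exon bases with Hiat1 on the same strand, and Slc25a35 (with Rangrf), Slc27a2 (with Gm16762) and Slc38a10 (with Gm11769) with a gene on the other strand, so reads may be mixed there as for Slc20a1.

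**Figure D3:**
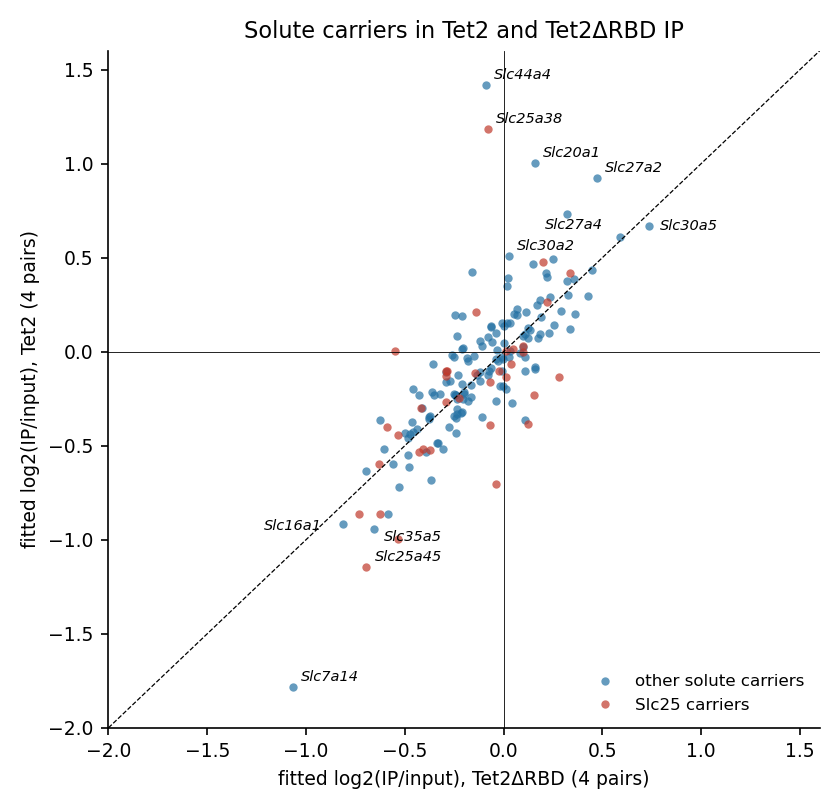
Fitted log2(IP/input) of the 179 solute carriers in Tet2 (vertical axis) against Tet2ΔRBD (horizontal axis), each from 4 pairs, with Slc25 carriers in red, the others in blue and the line of equal values dashed. Slc44a4 (1.42) and Slc25a38 (1.19) lie near 0 on the Tet2ΔRBD axis, and Slc16a1 and Slc35a5 are negative on both.

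The split into higher and lower calls differed between the edgeR fit and a limma fit on the TPM scale. These fits differ in input values and model as well as in scaling, and the part of scaling alone was not tested. The median of all expressed genes on the log2 TPM ratio scale was 0.08 in Tet1, 0.24 in Tet2 and 0.20 in Tet2ΔRBD. Over all genes tested in the edgeR fit, which centres most genes near 0, it was -0.04, 0.00 and -0.01. With limma on log2(TPM + 1), 51 solute carriers were called higher and 7 lower for Tet2, against 35.0% and 8.12% of all genes. For Tet2ΔRBD the split was 26 and 2 (23.5% and 4.59%), and for Tet1 it was 2 and 1 (3.59% and 1.05%). No named gene that edgeR had called in a line reversed its direction there under any setting run. Under the study's rule, in which a TPM above input counts as enriched, 84 solute carriers (46.9%) lay above input in all 4 Tet2 pairs, against 47.0% of expressed genes. Without replicate 1 it was 91, against 50.2%. In both Tet1 pairs 64 did (35.8%, against 50.5%). In all 4 Tet2ΔRBD pairs 27 did (15.1%, against 31.0%), and 31 without replicate 1 (against 32.6%).

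The Tet2ΔRBD count turned on replicate 2, in which 47 solute carriers (26.3%) lay above input, against 51.1% of all expressed genes, and the median solute carrier was at -0.21, against 0.01. In the other 3 Tet2ΔRBD pairs between 72.6% and 87.2% did. Without replicate 2 the count was 112 of 179 (62.6%, against 54.0% of all expressed genes). The lower share of solute carriers above input in Tet2ΔRBD, taken over all 179, was therefore present only with that pair included. Without it, 17 of 36 Slc25 carriers (47.2%) still stood below the share of all expressed genes. Of the 143 others, 95 (66.4%) did lie above input.

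Slc25 carriers and the other solute carriers did not separate in a consistent direction. The Slc25 median minus the median of the others, on the log2 TPM ratio scale, was 0.16 and 0.11 in the Tet1 pairs. In the Tet2 pairs it was -0.20, -0.24, 0.01 and 0.01, and in the Tet2ΔRBD pairs -0.17, 0.10, -0.04 and 0.05. The means were 0.13 ± 0.03 (SD, n = 2), -0.10 ± 0.13 (SD, n = 4) and -0.01 ± 0.12 (SD, n = 4), and without replicate 1 they were -0.07 in Tet2 and 0.04 in Tet2ΔRBD. In both Tet2 lines the mean difference was smaller than the spread between pairs. The Slc25 median exceeded that of the others in 6 of the 10 pairs. The share above input was lower for Slc25 in all 4 Tet2 pairs (52.8%, 63.9%, 61.1% and 58.3%, compared with 76.9%, 83.2%, 69.2% and 60.8%). It was higher in both Tet1 pairs (52.8% and 61.1%, compared with 38.5% and 48.3%). In Tet2ΔRBD it was lower in replicates 1, 3 and 4 and higher in replicate 2. Of the Slc25 carriers, 33.3% lay above input in all 4 Tet2 pairs and 19.4% below. The values were 50.3% and 6.99% for the others, and 47.0% and 13.4% for expressed genes. In Tet2, 2 of 36 Slc25 carriers were called higher (5.56%) and 10 lower (27.8%), compared with 13 higher (9.09%) and 24 lower (16.8%) of the 143 others and with 14.6% and 18.5% of all genes tested. In Tet2ΔRBD 0 were called higher and 8 lower (22.2%) among the Slc25 carriers, compared with 4 and 14 (9.79%) of the others and with 7.4% and 12.1% of all genes, and in Tet1 0 and 1 compared with 0 and 7.

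**Figure D4:**
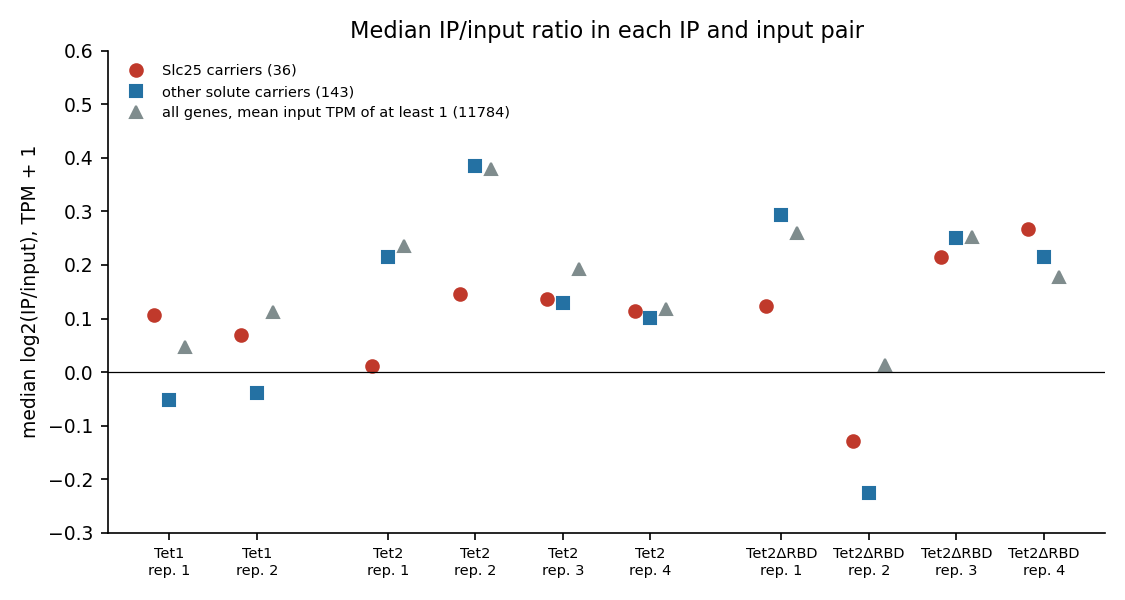
Median log2(IP/input) from TPM + 1 (vertical axis) in each of the 10 pairs (horizontal axis) for the Slc25 carriers (red circles), the other solute carriers (blue squares) and all expressed genes (grey triangles). The order of red and blue changes between pairs of 1 line, and Tet2ΔRBD replicate 2 lies below 0 for both.

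Of 6 well known or abundant mitochondrial carriers not named above, 1 was called, and in 1 line. This was Slc25a5, the ADP/ATP carrier ANT2, which held between 640 and 1166 TPM in the inputs and had fitted log2 ratios of -0.005 ± 0.22 in Tet1, -0.44 ± 0.16 in Tet2 (edgeR adjusted p = 0.0547) and -0.53 ± 0.16 in Tet2ΔRBD (adjusted p = 0.0389). The Tet2ΔRBD call was lost in 7 of 10 fits that left out 1 pair. Slc25a4, the ADP/ATP carrier ANT1, and Slc25a1, the citrate carrier, had ratios between -0.14 and 0.22 in the 3 lines. Slc25a3, the phosphate carrier, was at 0.37 ± 0.24 in Tet1, -0.10 ± 0.17 in Tet2 and -0.29 ± 0.17 in Tet2ΔRBD. Slc25a39, implicated in mitochondrial glutathione import, had ratios of 0.02 ± 0.19, -0.10 ± 0.13 and -0.02 ± 0.13 in the same order. Slc25a36, which carries pyrimidine nucleotides and is less abundant, lay between -0.42 and -0.25. None of these other 5 passed the threshold in any line.

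Of the nutrient transporters in the roster, Slc2a3 and Slc16a1 were called lower in every line, as given above, and 7 others passed the edgeR threshold in no line. The glucose transporter Slc2a1 had inputs between 249 and 1011 TPM and ratios between -0.29 and -0.16. The large neutral amino acid transporter Slc7a5, the most abundant of its family, had ratios of -0.28 ± 0.19, 0.10 ± 0.13 and -0.04 ± 0.13 in Tet1, Tet2 and Tet2ΔRBD. Its partner subunit Slc3a2, the glutamine transporters Slc1a5 and Slc38a2, and the arginine transporters Slc7a1 and Slc7a3 lay between -0.47 and 0.06. Slc39a1, a zinc importer, was called lower in Tet2 (-0.48 ± 0.11, adjusted p = 0.0082) and was at -0.34 ± 0.11 in Tet2ΔRBD (adjusted p = 0.0562).

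By family, each named for its main substrate, the counts in Tet2 stand beside 14.6% of all genes called higher and 18.5% called lower. The amino acid transporters gave 1 higher and 4 lower of 26 in Tet2 (median fitted log2 ratio -0.10), metal transporters 3 and 7 of 24 (-0.18), and inorganic ion transporters 4 and 1 of 24 (0.04), beside a median of 0.00 over all genes tested. Of the 4 fatty acid transporters (Slc27), 2 were called higher and none lower in Tet2, with a median of 0.38, and all 4 lay above input in every Tet1 and Tet2 pair (against 50.5% and 47.0% of expressed genes). The 5 nucleotide sugar transporters of the Slc35a subfamily had a median of -0.51 in Tet2 and -0.61 in Tet2ΔRBD, with 3 called lower in each line (Slc35a1, Slc35a3 and Slc35a5) and none higher. Their most abundant member, Slc35a4, was at -0.10 ± 0.10 and 0.11 ± 0.10. The Slc2 and Slc5 families, mostly sugar transporters but with the iodide carrier Slc5a5 and the vitamin carrier Slc5a6, gave 0 higher and 1 lower of 9 in each line, the lower one being Slc2a3. Monocarboxylate transporters gave 0 higher and 2 lower of 5 in Tet2. Their most abundant member, Slc16a3, which exports lactate, was at 0.07 ± 0.11, compared with -0.92 for Slc16a1. The vitamin and nucleoside carriers, led by the nucleoside transporter Slc29a1 (-0.12 ± 0.12), gave 0 and 1 of 9, and the organic ion carriers, led by Slc22a18 (-0.24 ± 0.17), 0 and 0 of 6. These lists are small, and no test was made of any of them as a list.

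Genes outside the symbol rule were counted in the same way, beside 14.6% of all genes called higher and 18.5% called lower in Tet2, and 7.4% and 12.1% in Tet2ΔRBD. Of 15 genes of the machinery that brings carriers into mitochondria, 1 was called higher in Tet2 IP and 8 lower (median fitted log2 ratio -0.54), and 0 and 5 in Tet2ΔRBD. The one higher was Tomm70a, the receptor for carrier precursors, at 0.73. The 8 lower included the import receptors Tomm20 (-0.89) and Tomm22 (-0.67), the small subunit Tomm7 (-1.27) and the chaperone Timm8b (-0.70). Of 16 genes of the ER insertion machinery, 1 was called higher and 5 lower in each Tet2 line. Sec61g was at -1.45 and Srp68 at 0.53 in Tet2. Of 17 tested carriers known by other names, 0 were called higher and 5 lower in Tet2, led by Brp44l, a subunit of the mitochondrial pyruvate carrier, at -1.15. Of 15 tested carriers of Slc35b to Slc35g, 2 were called higher and 4 lower.

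Input levels of the solute carriers differed widely between replicates, and in some of them the medians of the Slc25 carriers and the others were apart. In replicate 1 of Tet2 and of Tet2ΔRBD, the carriers other than Slc25 stood low. The sample titles give replicate numbers only and name no batch. Their median input level relative to the mean of replicates 3 and 4 was -1.08 in Tet2 and -1.02 in Tet2ΔRBD on the log2(TPM + 1) scale. For the Slc25 carriers it was -0.14 and -0.13, and for all expressed genes -0.04 and -0.10. In Tet2, 134 of 143 others (93.7%) and 23 of 36 Slc25 carriers (63.9%) lay below the replicate 3 and 4 mean, against 52.1% of all expressed genes. In Tet2ΔRBD the counts were 136 (95.1%) and 20 (55.6%), against 54.7%. The IP libraries of replicate 1 showed the same order, with medians of -0.89 and -0.91 for the others and -0.22 and -0.23 for the Slc25 carriers.

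The summed level of the other carriers was 2030 TPM in Tet2 input 1 and 2020 TPM in Tet2ΔRBD input 1, compared with 4780 to 6630 TPM in the other 6 inputs of the 2 lines. The summed Slc25 level was 2490 and 2550 TPM, compared with 2480 to 3340 TPM. The cationic amino acid transporter Slc7a3 showed the largest gap, at 10.1 and 10.6 TPM in inputs 1 and 92.1 to 158 TPM in inputs 2 to 4. Slc7a5 was at 51.4 and 43.9 TPM against 300 to 415 TPM. The 4 symbols that are not transporters were not low as a group in Tet2 (median 0.15, 1 of 4 below). In Tet2ΔRBD they were at -0.16, with 4 of 4 below. The Slc35b to Slc35g carriers, outside the rule, were low (median -1.25 and -1.20, with 14 of 14 below in both lines). The ER insertion machinery stood at -0.86 and -1.11, and the mitochondrial import machinery at -0.70 and -0.79, so the low level was not limited to transporters. With 1 such library a line, this is a description of those libraries. Its part in the IP ratios was not tested.

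**Figure D5:**
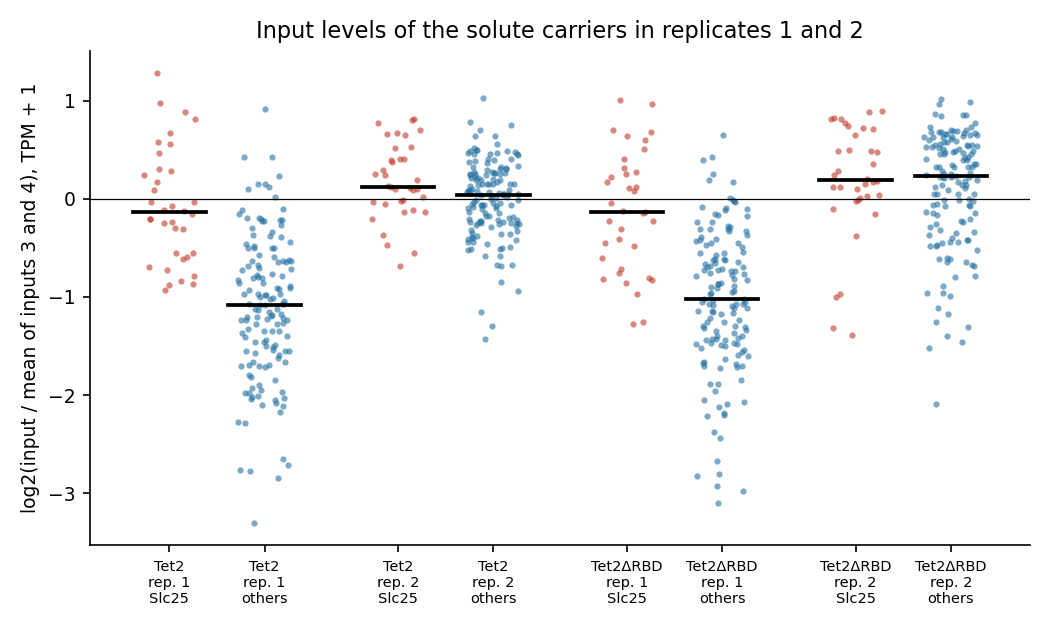
Input level of each solute carrier in replicates 1 and 2 of Tet2 and Tet2ΔRBD as log2 of its ratio to the mean of inputs 3 and 4, from TPM + 1 (vertical axis), with Slc25 carriers in red, the others in blue and medians as black bars. In replicate 1 of both lines the others centre near -1 (-1.08 and -1.02) and the Slc25 carriers at -0.14 and -0.13, whereas in replicate 2 all 4 medians are above 0.

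The IP ratio of solute carriers varied with base composition differently from that of genes at large. Across the 179, transcript GC content and the fitted log2 ratio had a Spearman correlation of 0.34 in Tet1, 0.37 in Tet2 and 0.41 in Tet2ΔRBD, compared with -0.05, 0.06 and -0.01 over 11239 expressed genes with a transcript in the annotation. The 28 solute carriers under 45% GC had median ratios of -0.30, -0.34 and -0.35 in the 3 lines, whereas the 64 at 55% GC or more had medians of -0.04, -0.02 and -0.01. All expressed genes under 45% GC had medians of 0.10, -0.07 and -0.01. Coding length showed the opposite order: the correlation was 0.13, 0.34 and 0.23 over the solute carriers and 0.35, 0.58 and 0.49 over all genes. For the length of the 3′ UTR it was -0.42, -0.21 and -0.21 over the solute carriers and -0.06, 0.09 and 0.07 over all genes. The Slc25 carriers have a shorter coding sequence than the others (median 954 bases compared with 1647) and had GC correlations of 0.38, 0.40 and 0.56. These values are descriptions across genes of the same libraries, and GC content, coding length and UTR length are related to one another.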

How the data were processed

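RIP-Seq libraries of mouse ESCs were analysed from the deposited values. Per the labels and the study's methods, the authors trimmed reads, removed rRNA and tRNA reads, aligned to mm9 with Bowtie2 and estimated gene levels with RSEM on the RefSeq transcriptome. They deposited expected counts, which are not normalized and need not be whole, and TPM with 1 added, together with transcript lengths. TPM was obtained from the deposited TPM + 1 column by taking 1 off. The strand setting is not given in the sources used here. Per the labels the RNA was polyA.

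Groups and replicate numbers came from the sample titles, and each IP was paired with the input of the same number. Deviations of IP and input of the same number from their group means correlated between 0.614 and 0.862 in Tet2, between 0.578 and 0.849 in Tet2ΔRBD and at 0.184 in Tet1. For different numbers the values were -0.697 to 0.779, -0.735 to 0.686 and -0.184. The ranges overlap in both Tet2 lines, so these correlations do not by themselves establish the pairing. The labels do not state that replicates were separate cultures, so p-values measure the spread between these samples, which may be technical.

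Expected counts were rounded, normalized by TMM and fitted over all 20 libraries with edgeR 4.0.16 (quasi-likelihood, R 4.3.3), with a block for each of 10 pairs and an IP effect for each line, leaving 7 residual degrees of freedom. Genes needed 1 CPM in at least 2 libraries, which all 179 members passed. Each SE was derived from the fit as log2 ratio over √F. Inputs of Tet2 and Tet2ΔRBD were compared by line in their 8 libraries (13178 genes). The design had listed this fit without the replicate number, and the block is an alternative. Alternatives were DESeq2 1.42.0, limma 3.58.1 on log2(TPM + 1), no filter on low counts, no block, other pseudocounts and minimum levels, each pair left out, and, added after seeing the data, replicates 3 and 4 summed. The edgeR fit was tested on simulated data.

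The members and lists were chosen with earlier results of these data known. The genes named are the 5 highest and 5 lowest called in each line, well known carriers, the most abundant of each family and those at the minimum level. Others are named as counted. The comparison of input levels between replicates and its lists were chosen after the values were seen. Positions, sequences, GC content and lengths are from NCBIM37 (mm9) with gencode vM1, matched by symbol for all 179 members and for 11239 of 11784 expressed genes (95.4%). Protein sequences were not used here. Depth lay between 21078995 and 37576638 expected counts per library.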

Additional observations from a re-analysis of the deposited data

Results flagged for a closer look

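Among the ratios of the named genes, 90 groups of 4 pairs were examined and 8 held 1 pair far from the other 3, where chance alone would give about 1 in 20. The value is the gap of that pair to its neighbour divided by the whole range. In Tet2 it was 0.921 for Slc44a4, whose replicate 1 lay at 2.21 on the log2 TPM ratio scale with the other 3 pairs between 1.40 and 1.46. It was 0.844 for Slc7a14 (replicate 1 at -0.25, the others between -1.41 and -1.23) and 0.841 for Slc25a47 (replicate 1 at -0.63, the others between -0.08 and 0.03). In Tet2ΔRBD it was 0.896 for Slc7a5, 0.838 for Slc7a1, 0.854 for Slc30a2 and 0.837 for Slc20a1, each with replicate 2 lowest, at -0.47, -0.61, -0.18 and 0.15. For Slc35a3 it was 0.903, with replicate 4 lowest at -0.61.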

How the results depend on the processing

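Both the counts of solute carriers called and, with limma, the split between higher and lower depended on the setting. In Tet1 (8 called) DESeq2 called 16, limma 3, the fit without the filter on low counts 3, and the fit with replicates 3 and 4 summed 1. The Tet1 fit without the filter called 438 higher and 310 lower of all 19601 genes. Without the replicate block 0, 4 and 0 solute carriers were called in Tet1, Tet2 and Tet2ΔRBD (main counts 8, 49 and 26). Calls fell over all 13710 genes too, to 0 in Tet1, 121 higher and 254 lower in Tet2, and 5 and 41 in Tet2ΔRBD. With replicates 3 and 4 summed, 3 solute carriers were called in Tet2ΔRBD. Leaving out each pair gave 0 to 21 calls in Tet1, 26 to 56 in Tet2 and 6 to 31 in Tet2ΔRBD. The lowest came without either Tet1 pair, without Tet2 replicate 1 and without Tet2ΔRBD replicate 3, and the highest in Tet1 without Tet2ΔRBD replicate 2. The 56 calls in Tet2, without Tet2ΔRBD replicate 2, stand beside 2733 higher and 2643 lower of all 13660 genes. The 31 in Tet2ΔRBD, without Tet2 replicate 2, stand beside 1439 and 1980 of 13692. For Tet2 minus Tet2ΔRBD DESeq2 called 2, and leaving out a pair gave 0 to 1. That call was Slc25a38 without Tet2 replicate 2, beside 14 of all 13692 genes. For Tet1 minus Tet2 and for the inputs every setting run gave 0, replicate block included.

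The Slc25 difference in Tet1 was 0.087 at a minimum of 5 TPM, and left-out pairs gave 0.11 to 0.16 in Tet1, -0.14 to -0.06 in Tet2 and -0.05 to 0.04 in Tet2ΔRBD. Solute carriers above input in every replicate numbered 3, 9 and 0 in Tet1, Tet2 and Tet2ΔRBD at a ratio of 1.5, and 38 and 15 in Tet2 and Tet2ΔRBD after centring on the median ratio. From group means without the pairing they numbered 133 and 116. Left-out pairs gave 74 to 91 in Tet1, 85 to 94 in Tet2 and 29 to 112 in Tet2ΔRBD. Beyond those given earlier, no shares of all expressed genes stand beside these counts. They show how the counts moved with the setting, not how solute carriers differed from other genes. For the causes of these shifts no test was made. For named genes called in a line, 462 alternative values kept the call, 123 lost it and 0 reversed. The genes with few counts, such as Slc25a45, are the least precise.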
